A study of Rattus norvegicus with 22 samples.

Results

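The cell composition of the kidney was compared between rats given DOCA (deoxycorticosterone acetate) together with finerenone and rats given DOCA alone. The comparison used every nucleus that the deposited annotation assigned to the finerenone or the DOCA treatment, which gave 165502 of the 310282 nuclei and 10 of the 22 libraries in the series, 5 per treatment. For each library the share of each of the 16 annotated cell types was computed among all nuclei. For the 13 types not annotated as proximal tubule (PT), it was also computed among the nuclei of these types, called non-PT nuclei. The second denominator sets aside libraries rich in a proximal segment, which lower the share of every other type. All rats were male Sprague-Dawley and whole kidney tissue was used for single-nucleus RNA-Seq. Both groups had undergone uninephrectomy, received DOCA at 50 mg/kg by weekly subcutaneous injection and drank salt water, so they share the model and differ in the daily gavage. The finerenone group received finerenone at 10 mg/kg/d and the DOCA group received vehicle. Each group had 4 samples taken at 6 weeks and 1 taken at 3 weeks. Sham-operated rats without DOCA, all taken at 6 weeks, served as control and are given as background with 5 libraries. They kept both kidneys, received sesame oil injections and drank tap water, so they differ from both groups in nephrectomy and salt as well as DOCA.

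Aldosterone and DOCA act through the mineralocorticoid receptor, which in the kidney is best known from the distal convoluted tubule and the collecting duct, where it raises sodium reabsorption through the epithelial sodium channel. Finerenone is a nonsteroidal antagonist of this receptor. The collecting duct is built of principal cells (PC), which reabsorb sodium and water, and of intercalated cells (IC), of which type A (IC_A) secretes acid and type B (IC_B) secretes bicarbonate. Under prolonged mineralocorticoid excess with salt, the kidney is known for hypertension, tubule injury, inflammation and fibrosis.

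The finerenone libraries held 6564, 9325, 13679, 40267 and 48403 nuclei and the DOCA libraries 1774, 8300, 8716, 13307 and 15167. Libraries are named by these sizes here, and values per library are given in this order. The 2 largest libraries held 75.0% of the 118238 finerenone nuclei and 60.2% of the 47264 DOCA nuclei. The library names match no sample label, so each library was taken as 1 sample of the treatment its nuclei carry, time points could not be separated, and the p-values measure only the spread between these libraries. The names form 3 sets. Libraries without a tag were those of 6564 and 9325 nuclei with finerenone and of 1774, 8300 and 8716 nuclei with DOCA. The tag Old was carried by the libraries of 13679 and 15167 nuclei, and the tag New by those of 40267, 48403 and 13307 nuclei. Both Old libraries also end in MO, which was read here as the Multiome kit that the methods name for some samples. What the tags stand for is not given in the sources used here. The 3 New libraries carry, apart from the tag, the same name as a library of the other treatment, so the finerenone libraries of 40267 and 48403 nuclei share theirs with the DOCA libraries of 1774 and 8300 nuclei, and the DOCA library of 13307 nuclei shares its name with the finerenone library of 13679 nuclei. Among the control libraries, those of 1238 and 14747 nuclei also share a name apart from tag and ending. Whether the names identify rats, or whether treatments were exchanged between libraries of the same name, is not given. The direction of every difference below therefore rests on the treatment in the deposited annotation, and the main results are also given without the New libraries. Pairs of libraries shared a median of 0.259% of the barcodes of the smaller library, and the pair of Multiome libraries shared 289 barcodes (2.11%). The finerenone libraries of 40267 and 48403 nuclei shared 563 (1.40%). A Multiome library shared at most 2 barcodes with any library outside that pair, and such pairs lower the median. The sharing expected by chance was not computed. Gene values were not analysed here, so the annotated cell types were not checked against their markers.

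IC_A cells were the only type whose share was lower in every finerenone library than in every DOCA library, both among all nuclei and among non-PT nuclei. Their mean share was 1.76% of all nuclei with finerenone and 3.03% with DOCA, and proliferating tubule cells were the next in order of p, at 0.648% and 1.25%. PST cells had the largest difference in mean share, 23.3% against 9.82%, but it rested on the library of 48403 nuclei. None of the 16 shares of all nuclei (0%) and none of the 13 shares of non-PT nuclei (0%) passed an adjusted p of 0.05 by the exact permutation test over libraries with Benjamini-Hochberg adjustment. Unadjusted, 2 of 16 types (12.5%) and 1 of 13 types (7.69%) had an exact permutation p under 0.05, and the same test on log2 shares gave 2 and 1. The groups did not overlap in 1 of 16 types (6.25%) and 1 of 13 types (7.69%). With 5 libraries against 5 there are 252 splits, and the smallest possible exact p is 0.00794. A single type at that value cannot reach an adjusted p under 0.05 over 16 types. It would take 3 types at that value, or more types at larger values. The finerenone mean was lower for 11 of 16 types (68.8%) and higher for 5 (31.2%), and among non-PT nuclei it was lower for 8 of 13 (61.5%) and higher for 5 (38.5%). These directions are not independent, because the shares of 1 library sum to a fixed total, so fewer cells of a type and more cells of the others cannot be told apart. By contrast, pooled shares, which treat nuclei as if they were independent, had 95% binomial intervals that did not overlap for 15 of the 16 types. Such intervals cover counting error only, and the spread between libraries of a treatment was far wider.

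**Figure D1:**
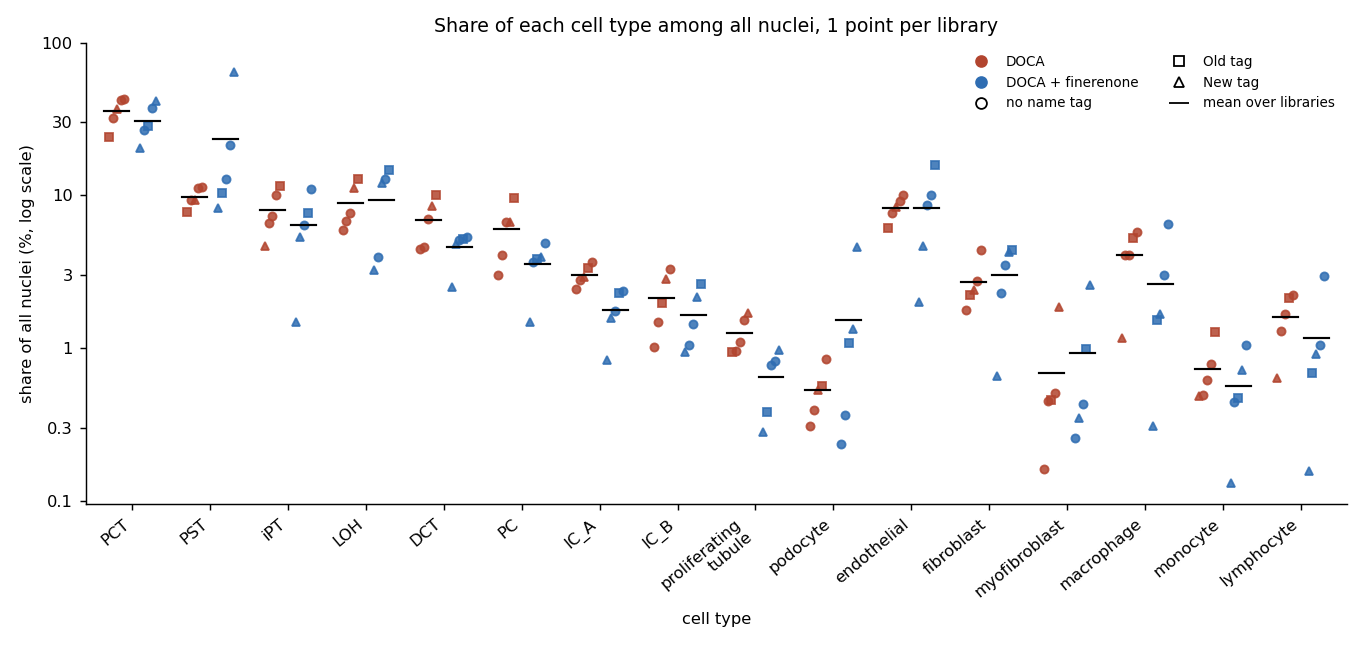
Share of each of the 16 cell types among all nuclei (percent, log scale), with 1 point per library for DOCA (red) and DOCA plus finerenone (blue), marker shape for the name tag and a black bar for the mean over 5 libraries. IC_A is the only type in which all 5 blue points lie below all 5 red points, and 1 finerenone library stands at 63.8% PST.

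In the collecting duct, the IC_A share of all nuclei was 2.42%, 3.65%, 2.78%, 2.93% and 3.36% in the DOCA libraries. In the finerenone libraries it was 2.36%, 1.76%, 2.29%, 1.57% and 0.839%. All finerenone libraries were lower than all DOCA libraries, although the closest pair lay only 0.0625 percentage points apart. That pair is the finerenone library of 6564 nuclei, with 155 IC_A nuclei (exact 95% binomial interval 2.01% to 2.76%), and the DOCA library of 1774 nuclei, with 43 (1.76% to 3.25%), and their intervals overlap. The means were 1.76% ± 0.617 (SD, n = 5) and 3.03% ± 0.483 (SD, n = 5). The difference was -1.26 percentage points (95% interval -2.08 to -0.488), with an exact permutation p of 0.00794, the smallest possible, and an adjusted p of 0.127. As a ratio of geometric means the finerenone share was 0.553 of the DOCA share (95% interval 0.343 to 0.824). The control libraries had a mean of 3.79% and ranged from 2.64% to 4.85%, so the finerenone libraries also lay below all control libraries. Of the DOCA libraries, that of 1774 nuclei, at 2.42%, did so too.

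Setting the PT aside brought the IC_A ratio nearer to 1 but the groups still did not overlap. Among non-PT nuclei, 6.03%, 7.52%, 7.12%, 5.94% and 5.92% were IC_A in the DOCA libraries. The finerenone libraries had 5.17%, 4.52%, 4.26%, 3.51% and 5.88%. The library of 48403 nuclei, which had the lowest IC_A share of all nuclei, thus had the highest of the finerenone libraries here, only 0.0352 percentage points under the lowest DOCA library. The means were 4.67% ± 0.90 and 6.50% ± 0.758 (SD, n = 5 each), a difference of -1.83 percentage points (95% interval -3.00 to -0.459) with an exact permutation p of 0.00794 and an adjusted p of 0.103. The ratio of geometric means was 0.71 (95% interval 0.572 to 0.918), and the control libraries ranged from 5.56% to 8.61%. The finerenone library of 48403 nuclei, at 5.88%, lay within the control range. Because the groups did not overlap, the sign of the difference was fixed in any subset of the libraries, so subsets show only its size. By name set it was -2.04 percentage points without a tag, -1.66 for Old and -1.24 for New. The p-values of the following fits largely restate the same separation and add no independent support. With libraries permuted only within the name sets, the exact p was 0.0167 under both denominators, the smallest possible over 60 splits. Without the New libraries the difference was -2.0 percentage points of non-PT nuclei (exact permutation p of 0.0286) and -0.916 of all nuclei (exact permutation p of 0.0571). Without the 2 libraries over 30000 nuclei it was -1.85 of non-PT nuclei (exact permutation p of 0.0179) and -0.891 of all nuclei (exact permutation p of 0.0536).

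The other collecting duct types overlapped between the groups. IC_B cells made up 1.01%, 3.30%, 1.47%, 2.83% and 1.98% of all nuclei in the DOCA libraries and 1.05%, 1.43%, 2.62%, 2.15% and 0.940% in the finerenone libraries. Among non-PT nuclei, the IC_B share was 2.52%, 6.80%, 3.76%, 5.74% and 3.50% with DOCA and 2.30%, 3.67%, 4.87%, 4.8% and 6.59% with finerenone. The IC_B means of 4.47% and 4.45% of non-PT nuclei were close, but the 95% interval of the difference ran from -2.68 to 2.59 percentage points. With IC_A and IC_B joined, the difference was -1.75 percentage points of all nuclei (exact permutation p of 0.0556) and -1.85 of non-PT nuclei (exact permutation p of 0.214). IC_A cells were 60.4% ± 8.46 of the IC with DOCA and 52.1% ± 10.6 with finerenone (SD, n = 5 each), with an exact permutation p of 0.214 and an adjusted p of 0.571. In this ratio 3 of 5 finerenone libraries lay below all DOCA libraries and 2 within their range.

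PC shares of all nuclei were 4.06%, 6.64%, 3.03%, 6.73% and 9.57% with DOCA. With finerenone they were 4.89%, 3.65%, 3.80%, 3.94% and 1.49%, so that 4 of 5 finerenone libraries lay within the DOCA range and 1 below it. The mean PC share was 3.55% ± 1.25 with finerenone and 6.01% ± 2.56 with DOCA (SD, n = 5 each), a difference of -2.45 percentage points (95% interval -5.54 to 0.773) with an exact permutation p of 0.0952 and an adjusted p of 0.457. As a share of non-PT nuclei, PC cells were 10.1%, 13.7%, 7.76%, 13.6% and 16.9% with DOCA and 10.7%, 9.37%, 7.08%, 8.79% and 10.4% with finerenone. The difference of the non-PT means was -3.13 percentage points (95% interval -7.05 to 1.03), with an exact permutation p of 0.103 and an adjusted p of 0.447. The difference ran from -3.20 without the DOCA library of 8716 nuclei (exact permutation p of 0.0159) to -1.56 without that of 15167 nuclei (exact permutation p of 0.206) among all nuclei, and from -4.29 to -2.01 without the same libraries among non-PT nuclei. Without the New libraries it was -1.71 percentage points of all nuclei (exact permutation p of 0.429) and -3.05 of non-PT nuclei (exact permutation p of 0.314). Among non-PT nuclei it was negative in all 3 name sets but small among the libraries without a tag, at -0.472, against -9.80 for Old and -4.01 for New. The control libraries were narrow, from 12.6% to 14.4% of non-PT nuclei, and all 5 finerenone libraries lay below them. So did the DOCA libraries with 10.1% and 7.76%. How many of the types stood apart from control in this way was not counted.

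The loop of Henle (LOH) and the distal convoluted tubule (DCT), which carry the targets of loop and thiazide diuretics, also overlapped. LOH shares of all nuclei were 5.92%, 6.76%, 7.64%, 11.2% and 12.9% with DOCA and 12.7%, 3.95%, 14.6%, 12.0% and 3.26% with finerenone, with means of 8.87% and 9.30% and a 95% interval of the difference from -6.64 to 6.85 percentage points. When PT nuclei were set aside, LOH cells were 14.7%, 13.9%, 19.6%, 22.7% and 22.7% with DOCA and 27.8%, 10.1%, 27.1%, 26.8% and 22.8% with finerenone. Thus 4 of 5 finerenone libraries lay above all DOCA libraries and the library of 9325 nuclei below all of them. The difference of the means was 4.23 percentage points (95% interval -4.63 to 12.9), with an exact permutation p of 0.278 and an adjusted p of 0.604. It was positive in all 3 name sets, and without the library of 9325 nuclei it was 7.42 percentage points (exact permutation p of 0.0317, adjusted p of 0.138).

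DCT cells made up 4.57%, 6.96%, 4.46%, 8.56% and 10.0% of all nuclei with DOCA. With finerenone the share was 5.10%, 5.31%, 5.20%, 4.77% and 2.52%, closely spaced in 4 libraries and lower in the library of 48403 nuclei. The means were 6.91% ± 2.44 and 4.58% ± 1.17 (SD, n = 5 each), and the difference was -2.33 percentage points (95% interval -5.37 to 0.641, exact permutation p of 0.119, adjusted p of 0.457). Among non-PT nuclei the DCT shares were 11.4%, 14.3%, 11.4%, 17.3% and 17.7% with DOCA and 11.2%, 13.6%, 9.68%, 10.6% and 17.7% with finerenone. There the library of 48403 nuclei was the highest of the finerenone libraries instead of the lowest, and the difference was -1.86 percentage points (95% interval -6.70 to 2.82). As a share of DCT and LOH together, DCT cells were 43.7% ± 4.91 with DOCA and 36.9% ± 13.4 with finerenone (SD, n = 5 each, exact permutation p of 0.294).

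Proliferating tubule cells, the tubule nuclei with a cell cycle signature, were 0.958%, 1.53%, 1.10%, 1.71% and 0.936% of all nuclei with DOCA. With finerenone they were 0.777%, 0.826%, 0.380%, 0.976% and 0.281%. Thus 4 of 5 finerenone libraries lay below all DOCA libraries and the fifth, of 40267 nuclei, lay just above the 2 lowest. The means were 0.648% ± 0.301 and 1.25% ± 0.351 (SD, n = 5 each), a difference of -0.598 percentage points (95% interval -1.09 to -0.118) with an exact permutation p of 0.0238 and an adjusted p of 0.190. The ratio of geometric means was 0.480 (95% interval 0.25 to 0.884). Their label names no segment and they were counted as non-PT here. A supplementary legend of the paper calls a proliferating cluster proximal tubule, so this denominator may not set the PT aside for them. Within the non-PT nuclei, these cells were 2.38%, 3.15%, 2.82%, 3.46% and 1.65% with DOCA and 1.70%, 2.12%, 0.708%, 2.18% and 1.97% with finerenone. There 4 of 5 finerenone libraries lay within the DOCA range, and the difference of -0.957 percentage points (95% interval -1.93 to 0.0507) had an exact permutation p of 0.0635 and an adjusted p of 0.413. The difference was negative in all 3 name sets under both denominators. Without the New libraries it was -0.471 percentage points of all nuclei (exact permutation p of 0.0286) and -0.992 of non-PT nuclei (exact permutation p of 0.143). The control libraries had a mean of 0.294% of all nuclei and ranged from 0 to 0.495%, so all DOCA libraries lay above the control range and the finerenone libraries of 13679 and 48403 nuclei within it. Among non-PT nuclei, where the control libraries reached 1.04%, only the finerenone library of 13679 nuclei lay within their range.

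In the PT, the convoluted segment (PCT) reabsorbs the bulk of the filtrate, the straight segment (PST) follows it, and iPT cells are PT cells annotated as injured. PCT shares of all nuclei were 41.9%, 32.0%, 42.5%, 36.6% and 24.0% with DOCA and 26.6%, 37.4%, 28.3%, 41.6% and 20.4% with finerenone. The difference of the means, 30.9% against 35.4%, was -4.56 percentage points (95% interval -16.0 to 6.90, exact permutation p of 0.373). PST shares were 11.3%, 9.34%, 11.2%, 9.37% and 7.81% with DOCA, a narrow range. With finerenone they were 21.3%, 12.8%, 10.4%, 8.30% and 63.8%, so that 3 of 5 libraries lay above all DOCA libraries. The mean difference of 13.5 percentage points (95% interval -1.0 to 34.0) had an exact permutation p of 0.143 and an adjusted p of 0.457. The library of 48403 nuclei supplied 80.8% of all PST nuclei with finerenone, and without it the finerenone mean was 13.2% and the difference 3.39 percentage points (exact permutation p of 0.230). Without the New libraries the difference was 4.91 percentage points (exact permutation p of 0.114). The pooled PST share, 32.3% against 9.28%, follows that library.

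The balance of PST and PCT had the smallest SD of the 9 ratios within lineages among the DOCA libraries, at 1.65 percentage points. PST cells were 21.3%, 22.6%, 20.9%, 20.4% and 24.5% of PCT and PST cells with DOCA, and 44.5%, 25.5%, 26.9%, 16.7% and 75.7% with finerenone. Here 4 of 5 finerenone libraries lay above all DOCA libraries and that of 40267 nuclei below all of them. The means differed by 15.9 percentage points (95% interval -2.45 to 39.5), with an exact permutation p of 0.159 and an adjusted p of 0.571. The control libraries ranged from 18.8% to 42.8%, wider than the DOCA libraries. Without the library of 48403 nuclei the difference was 6.45 percentage points (exact permutation p of 0.262). Without all New libraries, which include the highest and the lowest finerenone value, it was 9.97 percentage points (exact permutation p of 0.0286, adjusted p of 0.257).

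The iPT share of all nuclei was 6.54%, 10.1%, 7.29%, 4.64% and 11.4% with DOCA and 6.40%, 10.9%, 7.60%, 5.34% and 1.48% with finerenone. The groups overlapped except for the library of 48403 nuclei, and the difference was -1.65 percentage points (95% interval -6.09 to 3.07, exact permutation p of 0.452). Relative to the PST cells, from which they were separated by annotation, iPT cells were 36.6%, 52.0%, 39.3%, 33.1% and 59.4% of PST and iPT cells with DOCA and 23.1%, 46.0%, 42.3%, 39.1% and 2.26% with finerenone. The means were 44.1% ± 11.1 and 30.5% ± 18.1 (SD, n = 5 each), with a difference of -13.5 percentage points (95% interval -36.3 to 7.71, exact permutation p of 0.190, adjusted p of 0.571). Over the 3 name sets, 3 of the 9 ratios within lineages were lower in all, 1 was higher in all and 5 were mixed. The iPT difference was negative in all 3 sets, at -8.07 without a tag, -17.2 for Old and -12.4 for New. Old held only 1 library of each treatment. In New the sign rested on the library of 48403 nuclei, at 2.26%. The other finerenone library of that set, at 39.1%, lay above its DOCA library, at 33.1%. Over all libraries the size of the iPT difference also followed the library of 48403 nuclei, without which it was -6.46 percentage points (exact permutation p of 0.397). The medians differed by only -0.196 percentage points, and without the New libraries the means differed by -9.70 (exact permutation p of 0.343). The pooled ratio of 12.3% against 47.3% followed the same library. Control libraries had 17.5% to 36.3%. As a share of all PT cells, iPT cells were 15.6% ± 7.23 with DOCA and 11.5% ± 6.40 with finerenone (SD, n = 5 each, exact permutation p of 0.341).

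**Figure D2:**
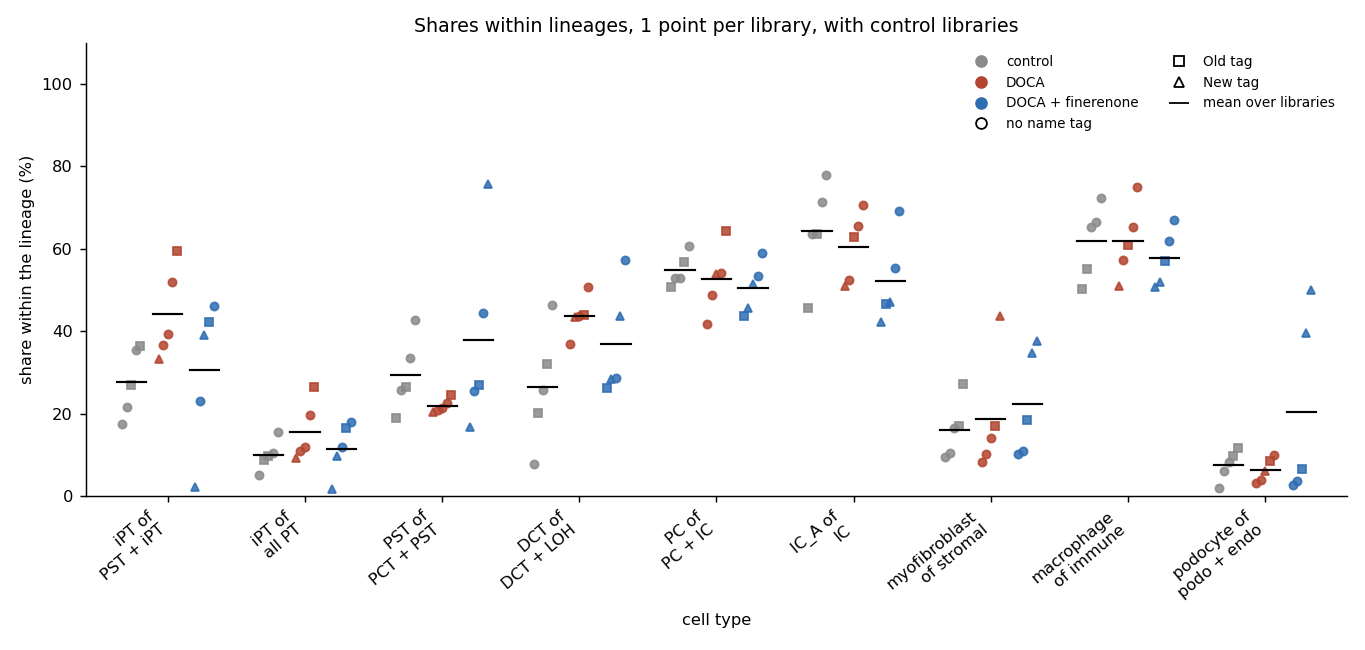
Shares within lineages (percent of the types named on the horizontal axis), with 1 point per library for control (grey), DOCA (red) and DOCA plus finerenone (blue), marker shape for the name tag and a black bar for the mean. The DOCA libraries lie between 20.4% and 24.5% for PST of PCT and PST while the finerenone libraries run from 16.7% to 75.7%, and the podocyte ratio reaches 49.9% and 39.7% only in the 2 finerenone libraries with the tag New.

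Podocytes, the filtration cells of the glomerulus, were 0.395%, 0.843%, 0.310%, 0.534% and 0.560% of all nuclei with DOCA and 0.366%, 0.236%, 1.08%, 4.61% and 1.32% with finerenone. Of the non-PT nuclei they were 0.982%, 1.74%, 0.794%, 1.08% and 0.988% with DOCA and 0.801%, 0.607%, 2.01%, 10.3% and 9.27% with finerenone. The high values belong to both finerenone libraries with the tag New, which supplied 92.8% of the podocyte nuclei with finerenone. The DOCA library with the tag New was not high. Outside this comparison, the spironolactone library with that tag held 2586 podocytes among 33683 nuclei. The amiloride libraries with that tag held 63 among 10172 and 138 among 11144. Whether the podocyte share follows the treatment, the tag or the library size was not tested. The difference among non-PT nuclei was 3.48 percentage points (95% interval -0.562 to 8.89, exact permutation p of 0.238, adjusted p of 0.604), and without the New libraries it was 0.0153 percentage points (exact permutation p of 0.971). Among all nuclei, the difference of 0.995 percentage points became 0.223 without the library of 40267 nuclei.

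Endothelial cells line the renal vessels. Their shares of all nuclei were 9.98%, 7.69%, 9.24%, 8.33% and 6.13% with DOCA and 10.0%, 8.65%, 15.8%, 4.62% and 2.01% with finerenone, and the means of 8.27% and 8.21% hid a far wider spread with finerenone (SD of 5.29 against 1.48). Of the non-PT nuclei they were 24.8%, 15.8%, 23.7%, 16.9% and 10.8% with DOCA and 21.9%, 22.2%, 29.3%, 10.3% and 14.1% with finerenone, with a 95% interval of the difference from -8.63 to 12.0 percentage points. Podocytes as a share of podocytes and endothelial cells were 6.27% ± 2.86 with DOCA and 20.4% ± 22.6 with finerenone (SD, n = 5 each, exact permutation p of 0.381).

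In the stroma, fibroblasts make the interstitial matrix and myofibroblasts are their contractile, matrix-rich relatives in fibrosis. Fibroblasts were 2.76%, 4.41%, 1.77%, 2.40% and 2.21% of all nuclei with DOCA and 3.47%, 2.28%, 4.36%, 4.27% and 0.655% with finerenone. Among non-PT nuclei they were 6.87%, 9.08%, 4.53%, 4.86% and 3.89% with DOCA and 7.61%, 5.87%, 8.11%, 9.54% and 4.59% with finerenone, with means of 5.85% and 7.14% and a 95% interval of the difference from -1.74 to 4.36 percentage points. In both cases 4 of 5 finerenone libraries lay within the DOCA range.

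Myofibroblasts were 0.451%, 0.506%, 0.161%, 1.86% and 0.455% of all nuclei with DOCA and 0.427%, 0.257%, 0.987%, 2.59% and 0.347% with finerenone. Among non-PT nuclei the values were 1.12%, 1.04%, 0.412%, 3.78% and 0.802% with DOCA and 0.934%, 0.662%, 1.84%, 5.78% and 2.43% with finerenone, a difference of 0.898 percentage points (95% interval -1.49 to 3.38, exact permutation p of 0.50). In each treatment the highest myofibroblast share was in a library with the tag New. Of the stromal cells, myofibroblasts were 43.7% in the DOCA library and 37.7% and 34.6% in the finerenone libraries with that tag, against at most 18.5% in the other 7 libraries. The treatment means of this ratio were 18.7% ± 14.4 with DOCA and 22.4% ± 13.1 with finerenone (SD, n = 5 each, exact permutation p of 0.754).

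Immune cells were annotated as macrophages, monocytes and lymphocytes. Macrophages were 5.75%, 4.08%, 4.05%, 1.16% and 5.26% of all nuclei with DOCA and 3.02%, 6.52%, 1.53%, 1.66% and 0.310% with finerenone. With finerenone, 3 libraries lay within the DOCA range, that of 9325 nuclei above it and that of 48403 nuclei below it. The difference was -1.45 percentage points (95% interval -4.09 to 1.85, exact permutation p of 0.317, adjusted p of 0.635). Macrophage shares of non-PT nuclei were 14.3%, 8.41%, 10.4%, 2.36% and 9.27% with DOCA and 6.60%, 16.8%, 2.84%, 3.71% and 2.17% with finerenone, a difference of -2.53 percentage points (95% interval -9.28 to 5.87).

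Monocytes were 0.620%, 0.494%, 0.780%, 0.481% and 1.28% of all nuclei with DOCA and 0.442%, 1.05%, 0.468%, 0.713% and 0.130% with finerenone. Of the non-PT nuclei they were 1.54%, 1.02%, 2.00%, 0.974% and 2.25% with DOCA and 0.967%, 2.70%, 0.871%, 1.59% and 0.913% with finerenone. Here 3 of 5 finerenone libraries lay below all DOCA libraries and that of 9325 nuclei above all of them. The difference among non-PT nuclei was -0.149 percentage points (95% interval -1.19 to 0.866).

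Lymphocytes were 1.3%, 1.67%, 2.24%, 0.639% and 2.11% of all nuclei with DOCA and 1.05%, 2.98%, 0.687%, 0.909% and 0.157% with finerenone. Of the non-PT nuclei they were 3.23%, 3.45%, 5.73%, 1.29% and 3.72% with DOCA and 2.30%, 7.66%, 1.28%, 2.03% and 1.10% with finerenone, a difference of -0.609 percentage points (95% interval -3.40 to 2.61, exact permutation p of 0.667). The finerenone library of 9325 nuclei thus had the highest share of each of the 3 immune types among all 10 libraries when non-PT nuclei were counted. Of the immune cells, macrophages were 61.9% ± 9.01 with DOCA and 57.6% ± 6.81 with finerenone (SD, n = 5 each, exact permutation p of 0.460).

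**Figure D3:**
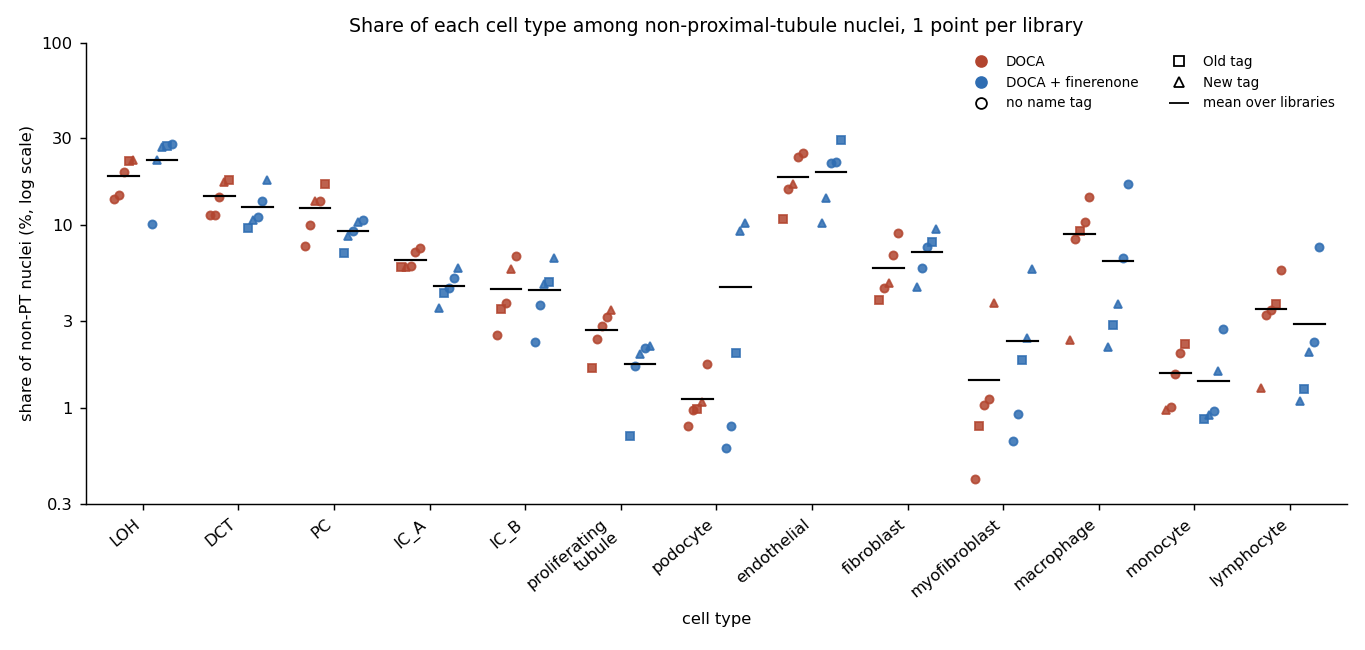
Share of each of the 13 types not annotated as PT among non-PT nuclei (percent, log scale), with 1 point per library for DOCA (red) and DOCA plus finerenone (blue), marker shape for the name tag and a black bar for the mean over 5 libraries. The groups do not overlap for IC_A alone, and the finerenone podocyte points split into 3 at or below 2.01% and 2 at 9.27% and 10.3%.

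Grouped into lineages, the finerenone mean was higher for 3 of 7 shares (42.9%) and lower for 4 (57.1%). None of them (0%) passed the test, and none had an unadjusted exact permutation p under 0.05 on the percent or the log2 scale. PT nuclei were 60.5% ± 15 with finerenone and 53.2% ± 7.29 with DOCA (SD, n = 5 each), a difference of 7.30 percentage points (95% interval -6.65 to 25.9, exact permutation p of 0.429). Without the library of 48403 nuclei, of which 85.7% were PT, the finerenone mean was 54.2%. Distal nephron nuclei (LOH, DCT, PC and IC) were 20.8% ± 8.07 of all nuclei with finerenone and 26.9% ± 8.42 with DOCA, but 53.9% ± 8.07 and 56.5% ± 9.56 of the non-PT nuclei (SD, n = 5 each). The immune lineage was 10.7% ± 9.45 of non-PT nuclei with finerenone and 14% ± 5.77 with DOCA (SD, n = 5 each, exact permutation p of 0.540). The difference in immune share of non-PT nuclei was -3.29 percentage points, and leaving out 1 library moved it between -7.39 without that of 9325 nuclei (exact permutation p of 0.0635) and -1.66 without that of 48403 nuclei (exact permutation p of 0.802). The stromal lineage was 9.47% ± 3.53 and 7.28% ± 2.38 of non-PT nuclei (SD, n = 5 each, exact permutation p of 0.294). Of the 9 ratios within lineages, 3 (33.3%) had a higher and 6 (66.7%) a lower finerenone mean. None was past the threshold (0%), and none had an unadjusted exact permutation p under 0.05 on either scale.

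**Figure D4:**
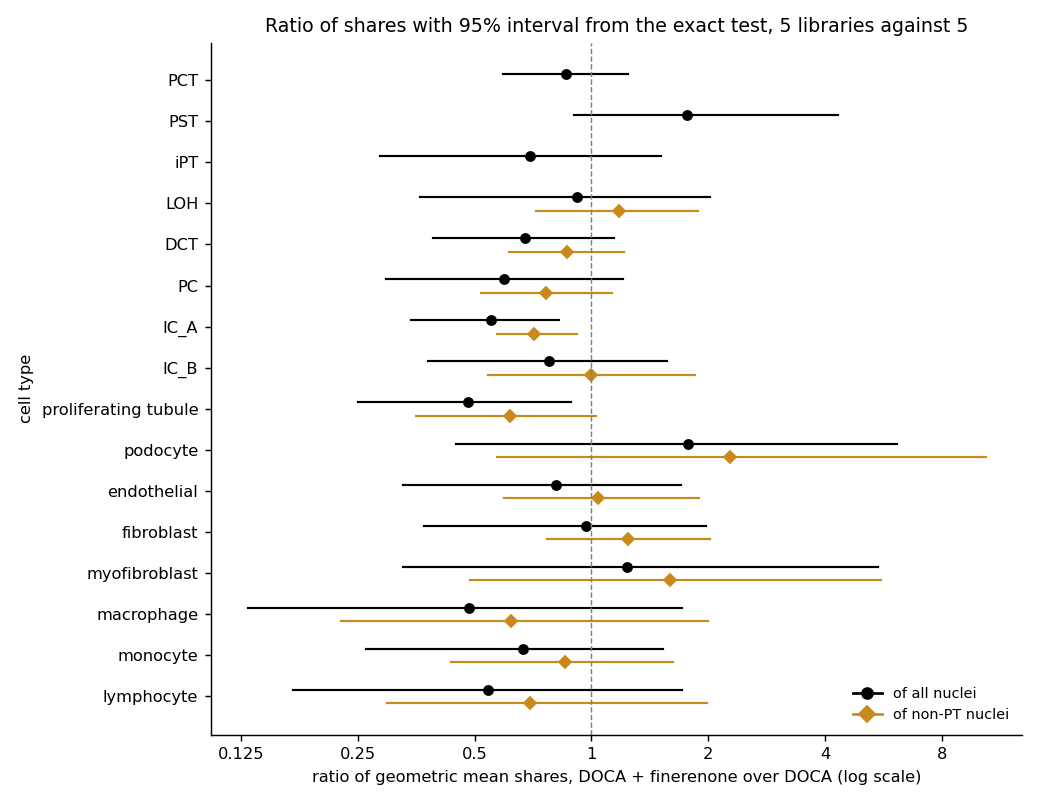
Ratio of the geometric mean share with DOCA plus finerenone to that with DOCA (log scale), with lines for the 95% interval from the exact permutation test, among all nuclei (black circles) and among non-PT nuclei (orange diamonds). The IC_A interval lies below 1 under both denominators (0.343 to 0.824 and 0.572 to 0.918), that of proliferating tubule cells only among all nuclei (0.25 to 0.884), and all others include 1.

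The composition as a whole was compared with distances between the log ratios of the types (Aitchison distance). The variation between the treatments relative to that within them gave a pseudo-F of 1.37 over 16 types (exact permutation p of 0.222) and of 1.29 over 13 types (exact permutation p of 0.278), both with an adjusted p of 0.421. The most similar library came from the same treatment for 5 of 10 libraries, where 20 of the 45 pairs share a treatment. It came from the same name set for 6 of 10 libraries over 16 types and 7 of 10 over 13 types, where 14 of the 45 pairs share a set, and neither count was tested. The DOCA libraries of 1774 and 8716 nuclei were each nearest to a finerenone library without a tag, and the finerenone libraries of 40267 and 48403 nuclei were nearest to each other over the 13 types. The effective number of types, which falls as fewer types dominate, was 7.53 ± 2.25 with finerenone and 8.83 ± 1.29 with DOCA (SD, n = 5 each, exact permutation p of 0.333, adjusted p of 0.421). It was 3.55 in the library of 48403 nuclei and between 8.22 and 8.98 in the other finerenone libraries.

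**Figure D5:**
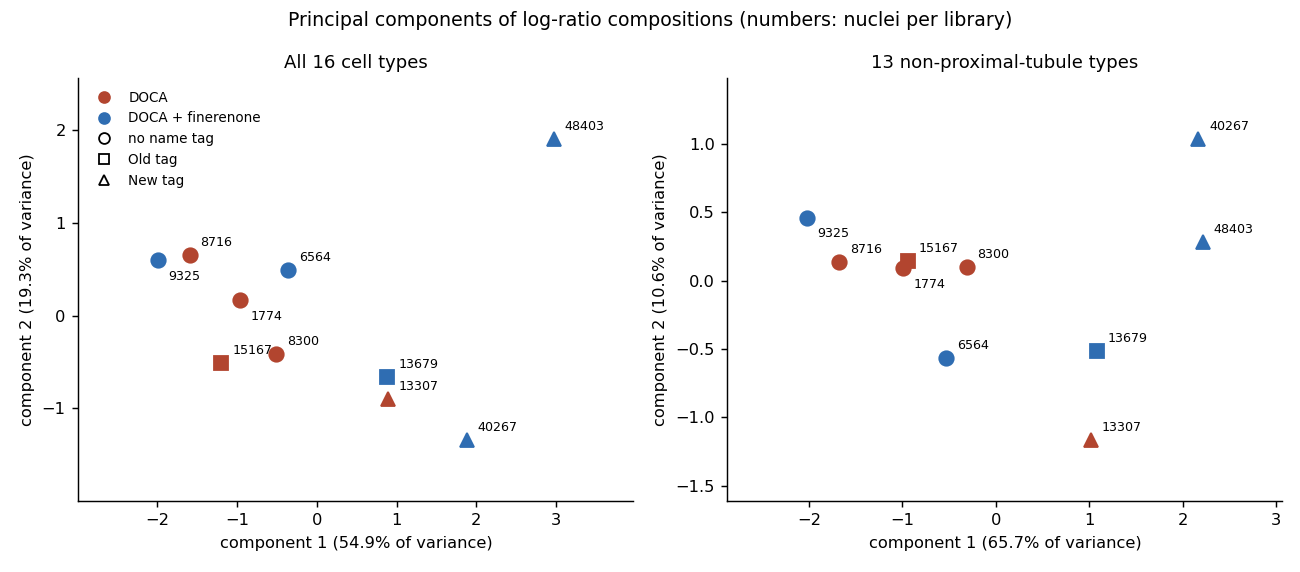
First 2 principal components of the log-ratio composition of the 10 libraries over 16 types (left) and 13 non-PT types (right), with DOCA in red, DOCA plus finerenone in blue, marker shape for the name tag and the number of nuclei beside each point. The axes hold 54.9% and 19.3% of the variance on the left and 65.7% and 10.6% on the right, and the finerenone libraries of 40267 and 48403 nuclei lie at the same end of the first axis in both, with that of 9325 nuclei at the other end.

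Mixing was described on the authors' UMAP, made from batch-corrected components. From it, 1500 nuclei were drawn from each of the 10 libraries and the 30 nearest neighbors of each were examined. Neighbors had the same cell type in 96.8% of cases, which describes how closely the annotation follows the embedding. Of the neighbors, 21.0% came from the same library and 56.0% from the same treatment. Equal mixing of libraries with the same composition would give 9.99% and 50.0%. The library of 48403 nuclei had 47.6% of neighbors from itself, and the others had between 13.2% and 28.0%. The compositions differed, and that library was 63.8% PST. A surplus of neighbors from the same library or treatment can thus come from composition alone, and composition and mixing were not separated. IC_A nuclei of finerenone libraries had neighbors of the same type in 97.0% of cases and those of DOCA libraries in 99.0%. For proliferating tubule nuclei these values were 88.6% and 88.4%, and for lymphocytes 91.5% and 83.8%. Nuclei of 1 library are not replicates, and no test was made on these values.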

How the data were processed

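The authors deposited an annotation of the single-nucleus RNA-Seq that names, for every nucleus, its library, its treatment and its cell type. The deposited UMAP coordinates are a score without unit. Per the methods, reads were aligned to rn6 with Cell Ranger including introns, ambient RNA and doublets were removed with SoupX and DoubletFinder, nuclei were filtered by genes and mitochondrial reads in Seurat, libraries were integrated with Harmony, and clusters were named from marker genes. The submitters' processing notes list Cell Ranger 3.0.2 and 6.0.1 and Seurat 4.0.1. Doublets were not called again.

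Nuclei were counted per library and type with Python 3.11.15 and pandas 2.3.3. The mean share over libraries of equal weight was compared by the two-sided exact permutation test over all 252 splits, with Benjamini-Hochberg adjustment over each family (16 types of all nuclei, 13 of non-PT nuclei, 7 lineages, 9 ratios, 4 measures of the whole composition) and a threshold of 0.05. The 95% intervals of differences and ratios came from inverting the test. Log2 shares and distances used a prior count of 0.5. Intervals of single shares are exact binomial (scipy 1.17.1) and cover counting error only. Neighbors were found with scikit-learn 1.9.0. The code was tested on simulated data. All 16 types are named, and the types, groupings and tests were chosen with earlier results of these data known. Alternatives were log2 shares, medians, pooled shares, permutation within name tags, tagged or untagged libraries only, and leaving out single, Multiome, New or large libraries. Gene counts were not analysed here.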

Additional observations from a re-analysis of the deposited data

Results flagged for a closer look

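In 94 sets of 5 libraries (each share or number of types in 1 treatment), 11 had a library that stood apart from the other 4 by Dixon's criterion at the 95% level (critical value 0.71). Chance flags about 1 in 20 such sets, and shares of the same library are not independent. With finerenone, the library of 48403 nuclei stood apart in 3 of them. Its PST share was 63.8% of all nuclei, against 8.30% to 21.3% in the other finerenone libraries. Its DCT share was 2.52% of all nuclei, against 4.77% to 5.31%, and its effective number of types was 3.55, against 8.22 to 8.98.

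The finerenone library of 40267 nuclei had a podocyte share of 4.61% of all nuclei, against 0.236% to 1.32%. The finerenone library of 9325 nuclei had an LOH share of 10.1% of non-PT nuclei, against 22.8% to 27.8%. In the same library lymphocytes were 7.66% of non-PT nuclei, against 1.10% to 2.30%, and all immune cells 27.1%, against 4.19% to 9.87%.

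With DOCA, the library of 13307 nuclei, the only DOCA library with the tag New, stood apart in its myofibroblasts. They were 1.86% of all nuclei, against 0.161% to 0.506% in the other DOCA libraries, 3.78% of non-PT nuclei, against 0.412% to 1.12%, and 43.7% of stromal cells, against 8.33% to 17.1%. The DOCA library of 8300 nuclei had an effective number of 10.1 types among the 13 non-PT types, against 8.75 to 9.0. The causes of these values were not tested.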

How the results depend on the processing

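No alternative brought a share, a ratio or a whole-composition measure past an adjusted p of 0.05. Several alternatives could hardly do so, because fewer splits raise the smallest possible p. There were 35 splits without New libraries, 56 without libraries over 30000 nuclei and 60 within name sets, against 252 in the main test. The number of types with an unadjusted exact permutation p under 0.05 ran from 0 to 4 of 16 and from 0 to 3 of 13 over 19 alternatives each. In these alternatives 18 of the 45 shares and ratios kept their direction, IC_A and proliferating tubule cells among them. For the IC_A shares of all and of non-PT nuclei this was fixed in advance, because the groups did not overlap. Permuting within tags or sets leaves the difference itself unchanged. Single name sets were not among the alternatives, and some of the 18 turned there. These were PCT (4.26) and IC_B (0.633) of all nuclei in Old and macrophages of immune cells (0.267) in New. Leaving out 1 library at a time, the IC_A difference ran from -1.41 to -1.03 percentage points of all nuclei and from -2.14 to -1.55 of non-PT nuclei. Tagged or untagged libraries alone, 3 against 2, cannot reach an exact permutation p under 0.05. Permuting within name sets, leaving out the New libraries and joining the IC types were chosen after seeing the data. No paired analysis was possible because the library names carry no replicate number of the samples. A fit without the 3-week samples was not run for the same reason.

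The following differences, in percentage points unless stated, had the opposite sign to that reported, and the cause was not tested. Among untagged libraries only, of all nuclei, they were iPT 0.689, podocytes -0.215, endothelial cells 0.365, fibroblasts -0.101, myofibroblasts -0.0306, macrophages 0.14, monocytes 0.115, lymphocytes 0.280, immune cells 0.535 and stromal cells -0.131. Of non-PT nuclei they were DCT 0.0295, podocytes -0.467, fibroblasts -0.0894, myofibroblasts -0.0609, macrophages 0.651, monocytes 0.315, lymphocytes 0.847, immune cells 1.81 and stromal cells -0.150. Within lineages they were iPT of PT 0.664, PC of PC and IC 7.93, myofibroblasts of stroma -0.355 and podocytes of podocytes and endothelial cells -2.56.

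Without libraries over 30000 nuclei, they were iPT 0.311, endothelial cells 3.20 and myofibroblasts -0.130 of all nuclei, myofibroblasts -0.286, lymphocytes 0.264 and immune cells 0.0105 of non-PT nuclei, myofibroblasts of stroma -5.52 and podocytes of podocytes and endothelial cells -2.07. Without Multiome libraries, they were fibroblasts -0.162 and stromal cells -0.00296 of all nuclei, endothelial cells -3.15, monocytes 0.160 and distal nephron 0.133 of non-PT nuclei, and PC of PC and IC 2.69. Among tagged libraries only, they were LOH -2.09 and endothelial cells 0.237 of all nuclei, IC_B 0.802 of non-PT nuclei and myofibroblasts of stroma -0.136. Without New libraries, they were endothelial cells 3.22 of all nuclei and podocytes of podocytes and endothelial cells -2.13. Pooled shares gave LOH -1.97 of all nuclei and IC_B 0.124 of non-PT nuclei, medians gave endothelial cells 0.328 and myofibroblasts -0.0284 of all nuclei and IC_B 1.04 of non-PT nuclei, and log2 shares gave LOH -0.126 and fibroblasts -0.0501 of all nuclei (log2 units).

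Leaving out 1 library turned the sign for 11 results, whose ranges were -0.894 to 1.93 (LOH), -1.95 to 1.49 (endothelial cells), -0.0373 to 0.888 (fibroblasts), -0.183 to 0.528 (myofibroblasts) and -0.199 to 1.27 (stromal cells) of all nuclei, -0.555 to 0.565 (IC_B), -1.25 to 3.50 (endothelial cells), -0.472 to 0.0252 (monocytes) and -5.56 to 0.519 (distal nephron) of non-PT nuclei, -4.68 to 0.962 (PC of PC and IC) and -0.153 to 9.94 (myofibroblasts of stroma).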
